A study of Mus musculus with 44 samples.

Results

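Tag-Capture-C and LI-Capture-C, assays of chromosome contacts around chosen promoters, were compared at an input of 200 ng of 3C material. The comparison used 6 of the 44 libraries of a study that adapted Capture-C to small amounts of material, 3 of each protocol, chosen by their labelled protocol and input. In a 3C library, formaldehyde-fixed chromatin is cut with the restriction enzyme DpnII and ligated, so that fragments lying close together in the nucleus become joined. Biotinylated oligonucleotides then enrich the junctions that contain a promoter fragment, the viewpoint. In LI-Capture-C (low input) the DNA was sonicated and adaptors were ligated to the repaired ends. In Tag-Capture-C a transposase cut the DNA and inserted the adaptors in a single step (tagmentation), with no more than 50 ng per reaction and parallel reactions pooled. The polymerase and the clean-up of the library also differed between the protocols. At capture, Tag-Capture-C used custom oligonucleotides to block its adaptors, and the stated amounts of library taken into capture differed. The effects of fragmentation, adaptor addition, amplification and capture therefore cannot be told apart.

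All 6 libraries came from Ter-119+ erythroid cells selected from spleen. The donors were female C57BL/6 mice given phenylhydrazine, which destroys red cells and fills the spleen with their precursors. Fixation was with 2% formaldehyde in both groups, and no genotype differed. An animal's identity was not attached to any library, and the study describes the triplicates both as aliquots and as biological replicates, so each p-value measures the spread between these 3 and 3 samples, which may be technical. The labelled cell type was not checked against markers, because the tables hold DNA contacts and no expression.

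The captured promoters belong to Hba-a1 and Hba-a2, Hbb-b1 and Hbb-b2, and Slc25a37. The first 2 pairs encode the adult alpha and beta chains of haemoglobin, and Slc25a37 encodes mitoferrin-1, the mitochondrial iron importer that supplies haem synthesis in red cell precursors. In these cells the globin promoters contact clusters of distant enhancers, which for alpha-globin lie on one flank of the genes and for beta-globin form the locus control region on the opposite chromosomal side of the genes. Each gene pair had been merged into a single profile per pair, so there were 3 profiles per library.

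Promoter sequences of the alpha-globin pair and of 2 beta-globin genes are printed to show how alike each set is. In the 250 bases before the RefSeq start (GRCm38.p6, plus strand) Hba-a1 (chr11:32283422-32283671) and Hba-a2 (chr11:32296242-32296491) shared an unbroken identical run of 247 bases, which is their whole overlap after a shift of 3 bases. The beta-globin genes that RefSeq lists for this assembly are Hbb-bt (chr7:103813924-103814173, minus strand) and Hbb-bs (chr7:103827929-103828178, minus strand). Laid side by side without gaps, their windows matched at 51.0% of 249 bases, with 14 bases in the longest identical run. No alignment with gaps was made, and one could give a higher match. Capitals mark CCAAT, the box found in many promoters.
Hba-a1: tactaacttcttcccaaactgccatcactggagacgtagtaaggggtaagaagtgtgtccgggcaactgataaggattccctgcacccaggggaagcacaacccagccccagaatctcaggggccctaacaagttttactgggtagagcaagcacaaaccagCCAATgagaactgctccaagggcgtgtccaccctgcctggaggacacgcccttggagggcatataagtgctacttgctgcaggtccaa
Hba-a2: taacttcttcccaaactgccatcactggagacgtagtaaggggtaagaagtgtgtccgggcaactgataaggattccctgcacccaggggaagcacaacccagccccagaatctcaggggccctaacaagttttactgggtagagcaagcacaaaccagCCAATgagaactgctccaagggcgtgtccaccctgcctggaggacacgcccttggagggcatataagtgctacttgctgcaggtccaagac
Hbb-bt: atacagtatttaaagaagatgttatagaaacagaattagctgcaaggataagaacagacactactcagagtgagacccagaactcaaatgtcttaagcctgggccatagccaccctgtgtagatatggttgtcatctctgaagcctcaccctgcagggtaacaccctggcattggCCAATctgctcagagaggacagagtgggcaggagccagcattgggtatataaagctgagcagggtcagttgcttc
Hbb-bs: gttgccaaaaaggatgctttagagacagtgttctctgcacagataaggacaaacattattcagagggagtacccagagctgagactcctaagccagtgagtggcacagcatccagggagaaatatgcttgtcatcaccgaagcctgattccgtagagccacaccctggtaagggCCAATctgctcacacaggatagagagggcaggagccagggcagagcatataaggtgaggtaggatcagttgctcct
CCAAT stood once on the gene's strand in each of the 4 sequences. Its reverse complement, which is not marked, occurred 2 times in Hbb-bt and not in the other 3 windows. Counting either strand, 33.8% of 32851 RefSeq promoter windows of this length held it. GATC, the letters that DpnII cuts, occurred once in Hbb-bs and in none of the other 3 windows, against 41.9% of all windows. Promoter windows of Hbb-b1, Hbb-b2 and Slc25a37 were not used here. The captured Hbb-b1 and Hbb-b2 were not matched to Hbb-bt and Hbb-bs, so the beta-globin sequences may not be those of the merged pair. All positions given from here on are in mm9, the build named in the submitters' processing notes, and are not comparable with the positions of these windows.

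The unit throughout is the unique interaction, a deduplicated junction between a viewpoint and a DpnII fragment as the authors counted it. Beyond 1000 kb on the viewpoint's chromosome, fragments with an even count held from 67.8% to 71.3% of alpha-globin interactions in the 6 libraries, from 56.2% to 66.2% at beta-globin, and from 22.2% to 47.1% at Slc25a37. The paper states that contacts of the duplicated globin promoters could not be told apart bioinformatically, and it pooled them in its profiles. It also lists mean totals per gene. At this input these were nearly equal for Hba-a1 and Hba-a2 within each protocol, and differed more between Hbb-b1 and Hbb-b2. Whether a junction was counted once for each gene of a merged pair could not be settled from the tables, which hold merged counts. If it was, totals, shares between viewpoints, equalised depths and p-values at the globin pairs rest on fewer junctions than the counts state. LI-Capture-C gave 55299, 56287 and 72652 unique interactions over the 3 viewpoints, and Tag-Capture-C gave 38668, 37985 and 37988. The groups did not overlap, so shares, scaled levels or equalised depths were compared, and values that were not adjusted for depth are named as such. Each viewpoint was placed by the stretches without counts around it. They may be longer than the captured fragment, and the edges of a viewpoint named below are those of its stretches. For alpha-globin these were chr11:32181399-32185213 and chr11:32194504-32198003, a span of 16.6 kb. For beta-globin they were chr7:110959283-110964281 and chr7:110974902-110977621, a span of 18.3 kb, and for Slc25a37 a single stretch at chr14:69901432-69905815. Distances below run from the nearer edge of the span, and the lower and higher sides are those of smaller and larger coordinates.

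The clearest protocol difference in the contact profiles lay at beta-globin. There 2 windows on the higher side, that of the locus control region, and 2 windows at the promoters took a smaller share with Tag-Capture-C. Contacts over 1000 kb away on the same chromosome took a larger one. Windows were not matched to annotated enhancers. At Slc25a37 the 2 windows that hold the edges of the viewpoint were lower with Tag-Capture-C, and at alpha-globin no 5 kb window passed the test. The shapes were otherwise alike. Across tested windows, those with a mean count of at least 10, the mean levels of the protocols had Pearson r-values of 0.994 for alpha-globin (74 windows), 0.991 for beta-globin (60 windows) and 0.982 for Slc25a37 (34 windows). Windows of a profile share libraries and the fall with distance, so these r-values are descriptions.

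**Figure D1:**
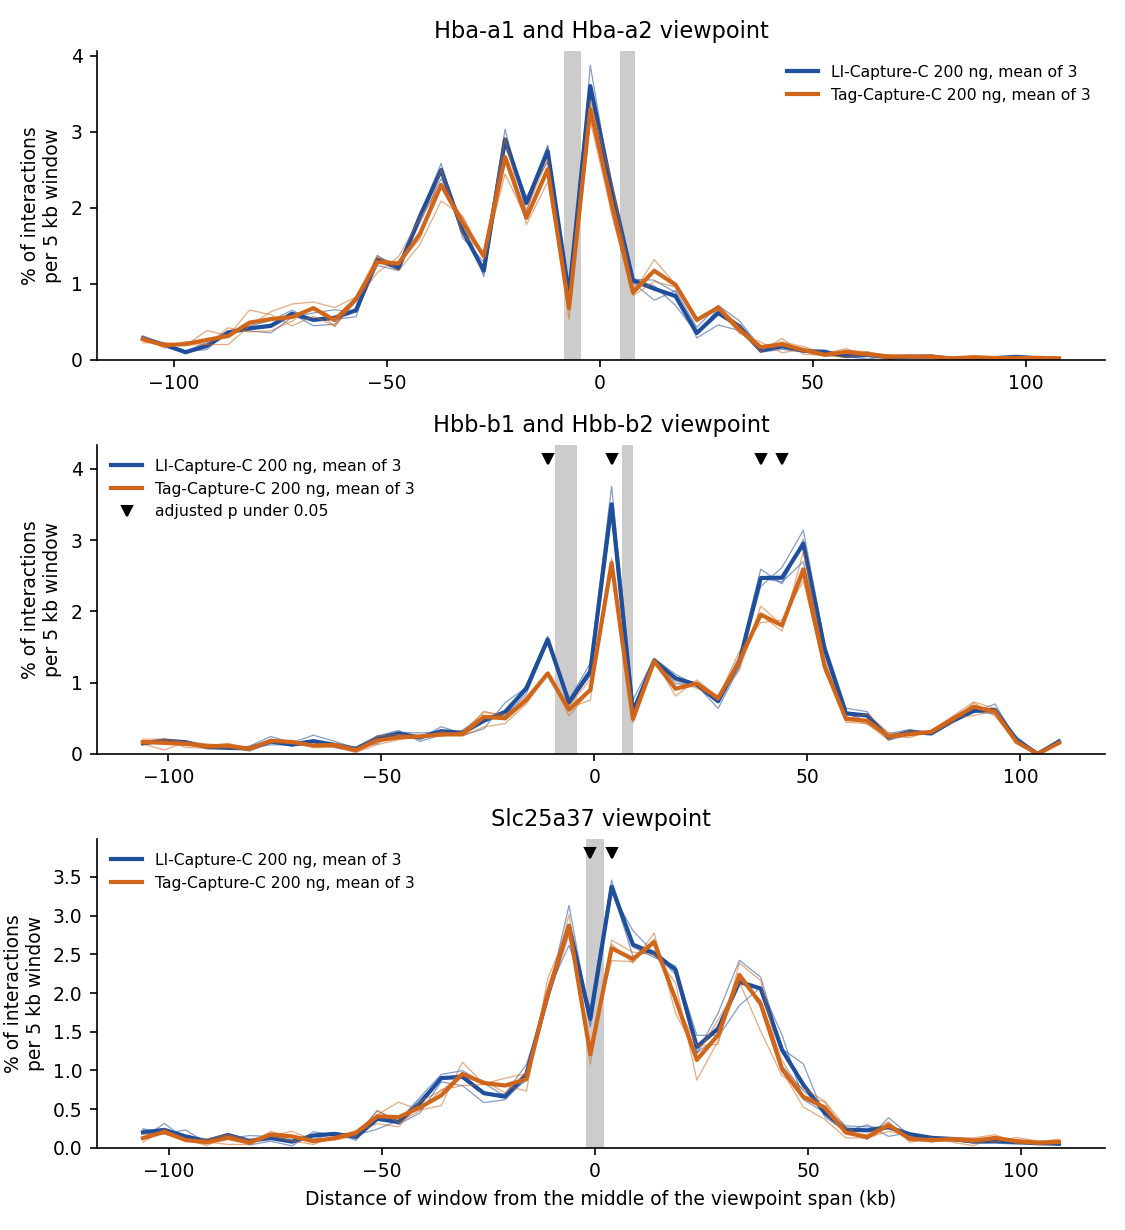
Share of each viewpoint's unique interactions (y axis, percent) in consecutive 5 kb windows (x axis, kb from the middle of the viewpoint span) at 200 ng. Thin lines are the 3 libraries of each protocol, thick lines their means, grey bars the uncounted viewpoint stretches and triangles the windows that passed the edgeR test, 4 at beta-globin and 2 at Slc25a37, all with the Tag-Capture-C mean below the LI-Capture-C mean.

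At beta-globin 4 of 60 windows, 6.67%, passed edgeR's quasi-likelihood test at an adjusted p under 0.05, and all 4 were lower with Tag-Capture-C. The libraries of the protocols did not overlap in 8 windows, 13.3%. Without LI-Capture-C replicate 2, or without Tag-Capture-C replicate 2, 2 windows passed. Levels are given per 100000 interactions of the viewpoint. In the window chr7:111010000-111014999, 34.9 kb away on the side of the locus control region, the LI-Capture-C libraries had levels of 2619, 2387 and 2414. The Tag-Capture-C libraries had 1723, 1808 and 1879 there. The groups were well apart, and the TMM-scaled log2 difference was -0.37 ± 0.08 (SE, edgeR adjusted p = 0.000359). The neighbouring window chr7:111005000-111009999 held 2348, 2594 and 2467 with LI-Capture-C. It held 1951, 2076 and 1842 with Tag-Capture-C, a log2 difference of -0.25 ± 0.08 (edgeR adjusted p = 0.0243). This window passed in 5 of 15 alternative settings, and its highest adjusted p among them was 0.248, whereas its neighbour passed in all 15.

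The fall in these enhancer-side windows was not even over their restriction fragments, which are named here after their values were seen. The fragment chr7:111008142-111009073, of 932 bp, had levels of 506, 382 and 426 with LI-Capture-C. With Tag-Capture-C it had 234, 153 and 161, a log2 ratio of the means of -1.26. The fragment chr7:111007508-111007928 of the same window went the other way, with a mean of 290 under LI-Capture-C and 337 under Tag-Capture-C. Of the 11 fragments of that window with a mean count of at least 10, 8 had lower means with Tag-Capture-C and 3 were lower without overlap. In the window 5 kb further out the corresponding numbers were 8 of 9 and 4. Over all 167 beta-globin fragments with that mean count, 68.3% had lower means and 18% were lower without overlap, and these windows had been picked for their fall, so the counts are descriptions.

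The highest window on the enhancer side, chr7:111015000-111019999, lay 39.9 kb away and did not pass. Its levels were 3138, 3012 and 2699 with LI-Capture-C and 2839, 2504 and 2429 with Tag-Capture-C. The groups overlapped, with a log2 difference of -0.10 ± 0.07 (edgeR adjusted p = 0.676). The window beyond it, chr7:111020000-111024999, had means of 1471 ± 72 and 1229 ± 91 (SD, n = 3) and no overlap, with a log2 difference of -0.17 ± 0.09 (edgeR adjusted p = 0.599). The window nearer to the genes, chr7:111000000-111004999, had means of 1294 and 1301 and a log2 difference of 0.10 ± 0.10 (edgeR adjusted p = 0.778). Of these 5 windows, the highest of the profile beyond 10 kb, 2 passed. On the lower side at a matching distance, the window chr7:110915000-110919999 had a mean level of 217 with LI-Capture-C and 189 with Tag-Capture-C. Both are far below the levels of the highest window, and the groups overlapped.

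At the beta-globin promoters, 2 windows with high levels in both protocols were lower with Tag-Capture-C. The window chr7:110970000-110974999, between the uncounted stretches, had 3382, 3758 and 3372 with LI-Capture-C. With Tag-Capture-C it had 2707, 2583 and 2750, a log2 difference of -0.30 ± 0.07 (edgeR adjusted p = 0.000613), which passed in 12 of 15 alternative settings. All 12 of its fragments had lower means with Tag-Capture-C, 7 of them without overlap, in a window that was picked for its fall. The window chr7:110955000-110959999, on the lower side and directly beside the span, had 1603, 1564 and 1653. With Tag-Capture-C it had 1141, 1105 and 1143, the largest called difference of this viewpoint at -0.42 ± 0.09 on the log2 scale (edgeR adjusted p = 0.000359). Much of it lay in the last fragment before the uncounted stretch, chr7:110958540-110959282, chosen after its values were seen. That fragment had 415, 472 and 455 with LI-Capture-C and 228, 220 and 216 with Tag-Capture-C. On the higher side, the window chr7:110980000-110984999 at 4.88 kb had means of 1311 and 1302 and did not pass (log2 difference 0.07, edgeR adjusted p = 0.801). The 3 windows nearest to passing in the other direction, at 107, 140 and 79.9 kb, had log2 differences of 0.68, 1.15 and 0.22, and none passed (edgeR adjusted p from 0.408 to 0.617).

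The same regions appeared when interactions were summed in bands of distance on each side. At beta-globin 5 of 16 bands, 31.2%, passed edgeR's test, 3 lower and 2 higher with Tag-Capture-C. The band from 25 to 50 kb on the enhancer side held 10.7%, 10.4% and 9.98% of all beta-globin interactions with LI-Capture-C. It held 8.62%, 8.37% and 8.23% with Tag-Capture-C, so that the groups were apart by more than 1 percentage point, with a log2 difference of -0.30 ± 0.03 (edgeR adjusted p = 1.76e-07). The stretch between the promoters fell by 0.36 ± 0.05 on the log2 scale, from a mean of 5.39% to 4.20% (edgeR adjusted p = 1.83e-06). The lower-side band within 10 kb fell by 0.37 ± 0.07, from 2.64% to 2.04% (edgeR adjusted p = 0.000109). Over 1000 kb away the direction was opposite. On the higher side the LI-Capture-C libraries held 13.4%, 12.8% and 12.8% and the Tag-Capture-C libraries 14.7%, 14.5% and 14.7%, a log2 difference of 0.17 ± 0.03 (edgeR adjusted p = 8.90e-06). On the lower side the means were 15.4% and 16.6%, with a log2 difference of 0.11 ± 0.02 (edgeR adjusted p = 0.00064). Shares of a viewpoint sum to 100, so a fall in some bands is matched by a rise in others.

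**Figure D2:**
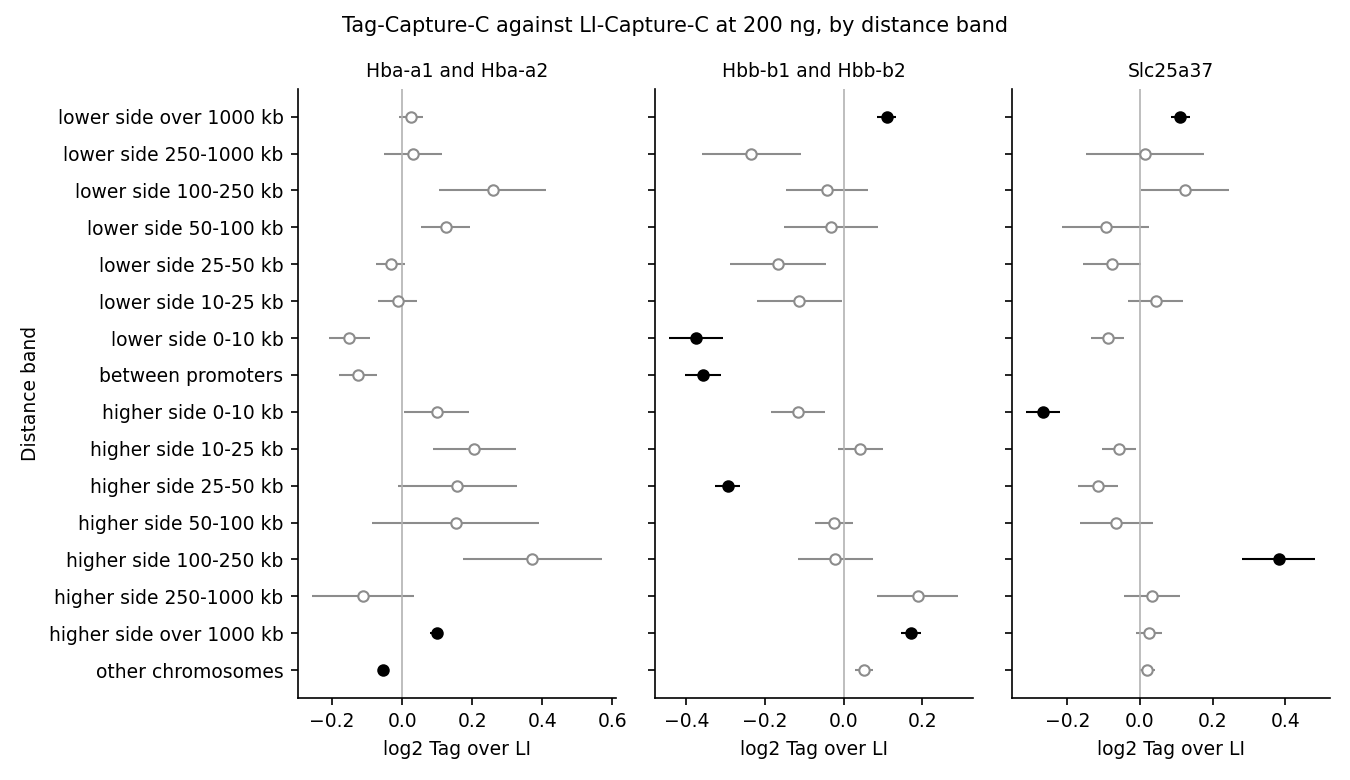
Log2 difference of Tag-Capture-C over LI-Capture-C at 200 ng (x axis) in bands of distance on the lower-coordinate and higher-coordinate side of each viewpoint, and on other chromosomes (y axis), scaled to each library's interactions of the viewpoint. Points are edgeR estimates with standard errors from 3 against 3 libraries, and filled points passed an adjusted p under 0.05: 2 at alpha-globin, 5 at beta-globin and 3 at Slc25a37.

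At Slc25a37 2 of 34 windows, 5.88%, passed edgeR's test, both of them at the promoter and both lower with Tag-Capture-C, and 3, 8.82%, had an unadjusted p under 0.05. The window chr14:69905000-69909999, which holds the higher edge of the viewpoint, had 3459, 3362 and 3299 with LI-Capture-C. It had 2682, 2420 and 2630 with Tag-Capture-C, a log2 difference of -0.34 ± 0.08 (edgeR adjusted p = 0.00217). The window at the lower edge, chr14:69900000-69904999, had 1802, 1564 and 1636 against 1214, 1328 and 1080, a log2 difference of -0.42 ± 0.14 (edgeR adjusted p = 0.043). Neither pair of groups overlapped, as in 7 of the 34 windows, 20.6%. Both calls were fragile: with DESeq2, or with the grid moved by 2.5 kb, no window of this viewpoint passed, and without LI-Capture-C replicate 1 or Tag-Capture-C replicate 2 none did either. The fragment adjoining the lower edge, chr14:69900630-69901406, again chosen after its values were seen, had 792, 603 and 771 with LI-Capture-C and 353, 487 and 398 with Tag-Capture-C.

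The next windows out did not pass. On the lower side, chr14:69895000-69899999 at 3.93 kb had means of 2869 and 2865 and a log2 difference of 0.04, and on the higher side chr14:69910000-69914999 at 6.68 kb had means of 2625 and 2440 and a log2 difference of -0.06 (edgeR adjusted p = 0.733 and 0.667). Beyond 10 kb the 5 highest windows of Slc25a37 lay on the higher side, and none of them passed. The highest of these, chr14:69915000-69919999, had means of 2509 ± 45 and 2658 ± 142 (SD, n = 3) and a log2 difference of 0.13 ± 0.09 (edgeR adjusted p = 0.53). The next window, chr14:69920000-69924999, had means of 2302 and 1921 without overlap, and a log2 difference of -0.21 ± 0.10 (edgeR adjusted p = 0.497). The windows at 31.7 and 36.7 kb had log2 differences of 0.12 and -0.10 with overlapping groups, and the one at 26.7 kb had -0.03. On the lower side, at the distance of the highest window, chr14:69885000-69889999 had means of 951 and 887, also overlapping. The windows at 18.9 and 23.9 kb on that side had log2 differences of 0.33 and 0.30 and did not pass (edgeR adjusted p = 0.53 for both).

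In bands, 3 of 15 passed at Slc25a37, 20%. The higher-side band within 10 kb held 6.67%, 6.37% and 6.64% with LI-Capture-C and 5.55%, 5.28% and 5.53% with Tag-Capture-C, a log2 difference of -0.27 ± 0.05 (edgeR adjusted p = 0.000193). The lower-side band over 1000 kb rose from a mean of 17.2% to 18.5%, a log2 difference of 0.11 ± 0.03 (edgeR adjusted p = 0.00354). The higher-side band from 100 to 250 kb rose from 1.29% to 1.67%, a log2 difference of 0.38 ± 0.10 (edgeR adjusted p = 0.00579). Leaving out LI-Capture-C replicate 3 left 1 of these bands, the one within 10 kb.

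At alpha-globin 0 of 74 windows, 0%, passed edgeR's test, with 9, 12.2%, at an unadjusted p under 0.05, and DESeq2 called 0 with 12 at an unadjusted p under 0.05. The enhancer side of this profile is the lower one, and its highest window, chr11:32165000-32169999, lay 13.9 kb from the promoters. It had 3035, 2863 and 2808 with LI-Capture-C and 2640, 2448 and 2917 with Tag-Capture-C. The groups overlapped through Tag-Capture-C replicate 3, and the log2 difference was -0.11 ± 0.08 (edgeR adjusted p = 0.58). The window nearer to the promoters, chr11:32175000-32179999 at 3.90 kb, had means of 2745 and 2508 and a log2 difference of -0.12 (edgeR adjusted p = 0.534). The next highest beyond 10 kb, chr11:32150000-32154999, had means of 2498 ± 103 and 2302 ± 207 (SD, n = 3) and a log2 difference of -0.11 ± 0.08 (edgeR adjusted p = 0.604). The windows at 33.9, 23.9 and 43.9 kb on this side had log2 differences of -0.17, 0.09 and -0.03, each with overlapping groups.

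On the other side of alpha-globin, the window mirroring the highest one was chr11:32210000-32214999. It had 345, 289 and 427 with LI-Capture-C and 536, 539 and 501 with Tag-Capture-C. The groups did not overlap, as in 10 of the 74 windows, 13.5%, but the log2 difference of 0.57 ± 0.22 did not pass (edgeR adjusted p = 0.267). The window chr11:32200000-32204999, 4.50 kb away on the same side, had means of 936 and 1173 and a log2 difference of 0.34 ± 0.13 (edgeR adjusted p = 0.267). The window chr11:32180000-32184999 at the promoter itself had means of 858 and 679 and a log2 difference of -0.32 ± 0.16 (edgeR adjusted p = 0.409). Among weak windows, those at 119 and 88.9 kb on the lower side had log2 differences of -1.80 and 1.05 from mean levels of 87.7 against 24.7 and 102 against 209, and neither passed (edgeR adjusted p = 0.267 for both). Over all tested windows, 36 of 74 were lower with Tag-Capture-C at alpha-globin, 34 of 60 at beta-globin and 21 of 34 at Slc25a37.

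In bands, 2 of 16 passed at alpha-globin, 12.5%. The higher-side band over 1000 kb held 16.9%, 16.8% and 16.6% with LI-Capture-C and 18.2%, 17.7% and 17.9% with Tag-Capture-C, a log2 difference of 0.10 ± 0.02 (edgeR adjusted p = 3.12e-05). Other chromosomes held 34.4%, 34.8% and 35.0% against 33.8%, 33.5% and 33.1%, a log2 difference of -0.05 ± 0.01 (edgeR adjusted p = 0.00105). Both differences were under 2 percentage points, and the groups did not overlap, as in 4 of the 16 bands, 25%.

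**Figure D3:**
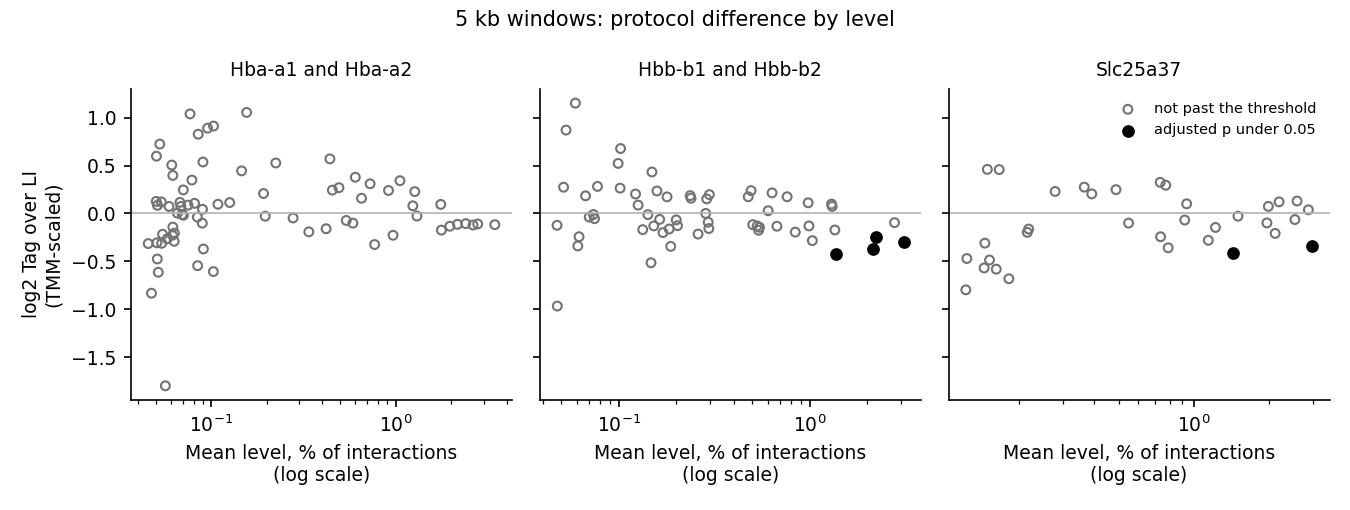
Log2 difference of Tag-Capture-C over LI-Capture-C at 200 ng in each tested 5 kb window (y axis, TMM-scaled) against the window's mean level over the 6 libraries (x axis, percent of the viewpoint's interactions, log scale). Filled points passed an adjusted p under 0.05, 0 of 74 at alpha-globin, 4 of 60 at beta-globin and 2 of 34 at Slc25a37, and all of them lie at high levels and below 0.

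The share of each profile within 250 kb of the viewpoint summarised these differences. At beta-globin it was 34.0%, 34.0% and 33.1% with LI-Capture-C and 29.8%, 30.0% and 28.7% with Tag-Capture-C, a difference of -4.19 ± 0.50 percentage points (SE). At Slc25a37 it was 37.6%, 37.1% and 37.2% against 35.3%, 35.0% and 35.4%, a difference of -2.07 ± 0.20 points. Neither pair of groups overlapped, and the exact two-sided permutation test gave p = 0.1 for both, the smallest that 3 against 3 allows. After Benjamini-Hochberg adjustment over 21 single-value tests, planned with earlier results of these data known, this was 0.191. At alpha-globin the means were 35.0% and 35.0%, with overlapping groups (exact permutation p = 1). As a percent of the interactions on chromosome 11 alone, the alpha-globin share was 53.3%, 53.4% and 54.2% with LI-Capture-C and 51.8%, 53.1% and 52.8% with Tag-Capture-C. This difference of -1.09 ± 0.46 points was without overlap (exact permutation p = 0.1) and had the direction of the other viewpoints, which differed by -5.53 and -2.67 points on the same scale.

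Other measures of shape were compared in the same way. The ratio of the lower to the higher side between 10 and 50 kb was 2.58 ± 0.23 on the log2 scale at alpha-globin with LI-Capture-C and 2.34 ± 0.07 with Tag-Capture-C (SD, n = 3, exact permutation p = 0.2). At beta-globin, where the enhancer side is the higher one, it was -2.49 ± 0.08 and -2.41 ± 0.18 (exact permutation p = 0.6). At Slc25a37 it was -1.17 ± 0.19 and -1.09 ± 0.08 (exact permutation p = 0.8). In all 3 profiles the groups overlapped, and the sides kept the same order in every library. The slope of log2 interactions per kb against log2 distance from 10 to 1000 kb had means of -1.45 and -1.44 at alpha-globin, -1.42 and -1.40 at beta-globin, and -1.50 and -1.48 at Slc25a37. Over this range the Slc25a37 slopes did not overlap between protocols (exact permutation p = 0.1), and the others did. From 10 to 250 kb the slopes were shallower with Tag-Capture-C without overlap at all 3 viewpoints (exact permutation p = 0.1 each). Their means there were -1.72 and -1.63 at alpha-globin, -1.30 and -1.27 at beta-globin, and -1.61 and -1.55 at Slc25a37.

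Fragment length was compared next. Fragments under 200 bp took 15.2%, 15.3% and 16.7% of alpha-globin interactions within 250 kb with LI-Capture-C and 14.4%, 14.4% and 15.3% with Tag-Capture-C (exact permutation p = 0.3). The means were 18.1% and 18.5% at beta-globin and 19.7% and 20.2% at Slc25a37, with overlapping groups (exact permutation p = 0.4 and 1). The concentration of each profile on its strongest fragments was measured on the top 25% of fragments as ranked in the NG Capture-C libraries made with 2% formaldehyde, 236 fragments at alpha-globin, 256 at beta-globin and 251 at Slc25a37. They held 88.2%, 88.7% and 88.1% of local alpha-globin interactions with LI-Capture-C and 87.1%, 87.1% and 85.9% with Tag-Capture-C. At Slc25a37 they held 87.4%, 86.9% and 86.9% against 85.1%, 85.8% and 84.9%. Both were lower with Tag-Capture-C without overlap (exact permutation p = 0.1), whereas the beta-globin groups, with means of 82.9% and 81.6%, overlapped (exact permutation p = 0.2).

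The protocols also differed in the makeup of a library by viewpoint. The alpha-globin pair held 45.1%, 46.0% and 46.1% of the interactions of the 3 viewpoints with LI-Capture-C and 38.6%, 39.0% and 38.9% with Tag-Capture-C. The beta-globin pair held 40.0%, 39.5% and 39.1% against 43.1%, 43.1% and 42.6%. Slc25a37 held 14.8%, 14.4% and 14.8% against 18.3%, 17.8% and 18.5%. The difference was -6.91 ± 0.35 percentage points (SE) at alpha-globin, and beta-globin and Slc25a37 were higher with Tag-Capture-C by 3.38 ± 0.33 and 3.53 ± 0.24 points, each without overlap (exact permutation p = 0.1, the smallest possible). With each fragment's count at the globin pairs divided by 2 and rounded up, chosen after seeing the data, the alpha-globin means became 40.4% and 33.2% and the differences -7.22, 3.54 and 3.68 points.

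The libraries from 100 and 50 ng, the same 3 viewpoints with other libraries of both protocols, were then compared in the same way. The alpha-globin difference was -8.04 points at 100 ng and -8.29 points at 50 ng, the beta-globin difference 4.62 and 5.30 points, and the Slc25a37 difference 3.42 and 3.00 points. With labels exchanged within each input over the 18 libraries, each viewpoint's mean difference had an exact two-sided permutation p = 0.00025, the smallest that these 8000 assignments give. The Benjamini-Hochberg value over 21 such tests was 0.000875.

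**Figure D4:**
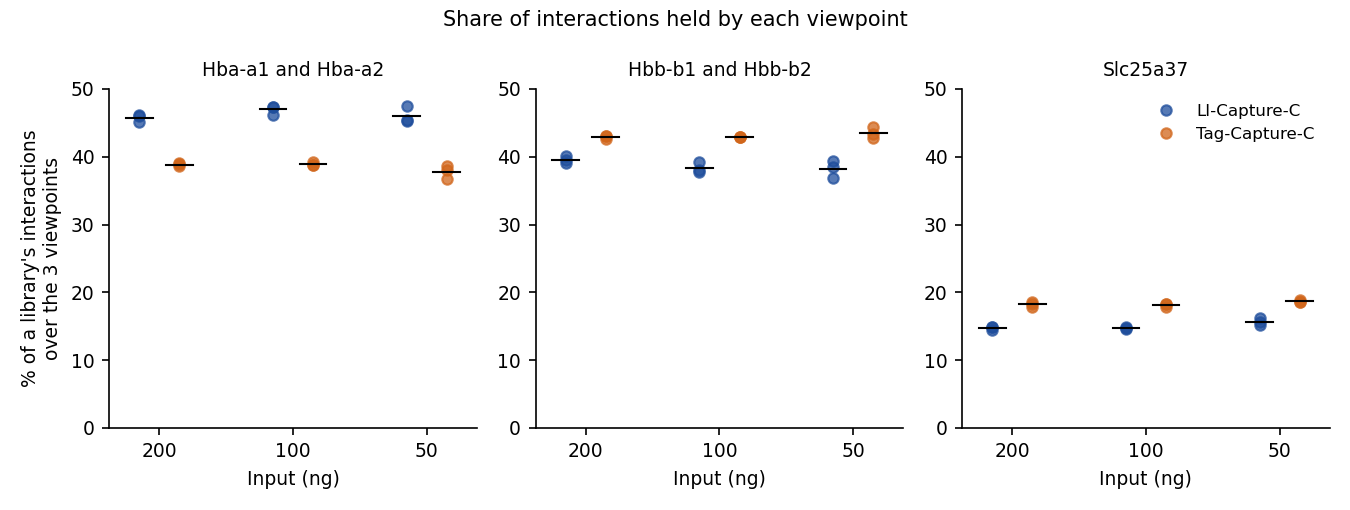
Percent of a library's unique interactions over the 3 viewpoints that belonged to each viewpoint (y axis), by input in ng (x axis). Points are single libraries, 3 per protocol and input, and bars their means; the protocols do not overlap at any input at alpha-globin, where the 200 ng means are 45.8% and 38.8%.

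Several differences close to the viewpoints changed sign over the inputs, and the share on other chromosomes shifted too. At 200, 100 and 50 ng that share differed by -1.28, -1.24 and -6.21 points at alpha-globin. At beta-globin it differed by 1.33, -0.90 and -5.78 points, and at Slc25a37 by 0.47, -1.40 and -6.85 points. The adjusted exact permutation p over inputs was 0.00235, 0.222 and 0.0692 in that order. From 200 to 50 ng the LI-Capture-C means of this share went from 34.7% to 38.5%, 35.4% to 43.6% and 31.6% to 39.5%. The Tag-Capture-C means went from 33.5% to 32.2%, 36.7% to 37.9% and 32.0% to 32.6%, so most of the shift lay in LI-Capture-C. A viewpoint's shares sum to 100, so these shifts and the differences below are not independent. The share within 250 kb differed by -4.19, -2.55 and 1.36 points at beta-globin and by -2.07, -0.06 and 1.82 points at Slc25a37 at 200, 100 and 50 ng. Neither mean over inputs passed (exact permutation p = 0.0285 and 0.841, adjusted 0.0855 and 0.883). The difference between the effects at 200 and 50 ng was -5.55 and -3.90 points (exact permutation p = 0.01, adjusted 0.07 for both). The Slc25a37 higher-side band within 10 kb went from -1.11 to -0.52 and 0.40 points and did not pass over inputs (adjusted exact permutation p = 0.248). The beta-globin band from 25 to 50 kb on the enhancer side had means of 10.3% and 8.41% at 200 ng, 10.3% and 9.47% at 100 ng, and 9.29% and 9.96% at 50 ng, in the order LI-Capture-C and Tag-Capture-C. Its difference was thus -1.93, -0.79 and 0.67 points, and the mean over inputs did not pass (exact permutation p = 0.0772, adjusted 0.226 over 47 bands). The difference between the effects at 200 and 50 ng was -2.60 points (exact permutation p = 0.02, adjusted 0.157). The band between the beta-globin promoters was lower with Tag-Capture-C at 200 and 100 ng, by 1.19 and 1.18 points, and 0.11 points higher at 50 ng, and its mean over inputs passed (exact permutation p = 0.00575, adjusted 0.0338). The lower-side band within 10 kb was lower with Tag-Capture-C at all inputs and passed as well (adjusted exact permutation p = 0.0101).

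Contacts over 1000 kb away were higher with Tag-Capture-C at every input. At beta-globin the higher-side band differed by 1.64, 2.02 and 1.79 points at 200, 100 and 50 ng, and the lower-side band by 1.22, 1.15 and 2.53 points. At alpha-globin the higher-side band differed by 1.18, 1.20 and 1.49 points, and at Slc25a37 the lower-side band by 1.35, 0.90 and 2.45 points. Each of these 4 had the smallest exact permutation p, 0.00025, over the 8000 assignments (adjusted 0.00235). The alpha-globin lower-side band passed with an adjusted exact permutation p of 0.0101, and the Slc25a37 higher-side band did not pass (adjusted exact permutation p = 0.109). For the windows, a fit of edgeR over all 18 libraries called 3, 1 and 1 of 60 at beta-globin at 200, 100 and 50 ng and 0 at the other viewpoints at every input, where 0 to 9 windows had an unadjusted p under 0.05. The call at 100 ng, chr7:110970000-110974999, was lower with Tag-Capture-C (log2 difference -0.37, edgeR adjusted p = 0.00799). The call at 50 ng, chr7:110980000-110984999, was higher (log2 difference 0.70, edgeR adjusted p = 0.00352). At the called window chr7:111010000-111014999 the means were 2344 and 2096 at 100 ng and 2065 and 2109 at 50 ng, with edgeR log2 differences of -0.11 and 0.00.

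The distant contacts also differed in how they were counted. On the viewpoint's chromosome beyond 1000 kb, most counted fragments carry very few interactions, and a counted alpha-globin fragment there held on average 2.27, 2.32 and 2.36 interactions with LI-Capture-C. With Tag-Capture-C it held 1.80, 1.82 and 1.82. The means were 2.05 and 1.61 at beta-globin and 1.46 and 1.16 at Slc25a37. These values were not adjusted for depth, and those of a library fall when it is reduced to fewer interactions. At 200, 100 and 50 ng the alpha-globin means were 2.32, 2.32 and 2.20 with LI-Capture-C and 1.82, 1.82 and 1.85 with Tag-Capture-C. In the same order they were 2.05, 2.01 and 1.93 against 1.61, 1.60 and 1.65 at beta-globin. At Slc25a37 they were 1.46, 1.44 and 1.61 against 1.16, 1.15 and 1.22. Each viewpoint's mean difference over inputs had an exact permutation p = 0.00025 (adjusted 0.000875). The 6 libraries at 200 ng were also brought to the distant interactions of the shallowest. These were 4019 at alpha-globin, 5066 at beta-globin and 2054 at Slc25a37, and the order turned at alpha-globin. There the LI-Capture-C libraries held 1.71, 1.70 and 1.55 and the Tag-Capture-C libraries 1.78, 1.82 and 1.82. The reduction treated each count as independent, so a junction counted under both genes could be split, most often in the deeper libraries. Before the reduction, distant alpha-globin interactions were 6527, 6739 and 8592 with LI-Capture-C and 4099, 4019 and 4032 with Tag-Capture-C. Whether the turned order comes from such splitting was not tested. At beta-globin the means at equal depth were 1.74 and 1.60, and at Slc25a37 1.37 and 1.16. Groups did not overlap at any viewpoint, with or without the adjustment (exact permutation p = 0.1 each). Whether this bears on the larger distant share was not tested.

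The distribution of these low counts, not adjusted for depth, also differed between the protocols. At Slc25a37, a single promoter, 85.4% ± 0.69 of counted distant fragments carried 1 interaction with Tag-Capture-C and 63.5% ± 4.3 with LI-Capture-C (SD, n = 3), and 13.1% against 28.7% carried 2. At alpha-globin fragments with 2 interactions outnumbered those with 1, at 57.2% against 32.3% with Tag-Capture-C and 42.7% against 27.2% with LI-Capture-C. Fragments with 4 interactions made up 17.8% ± 1.3 with LI-Capture-C and 2.39% ± 0.35 with Tag-Capture-C, while those with 3 made up 7.97% and 7.73%. At beta-globin the shares with 4 were 12.4% and 1.73%, and those with 3 were 6.64% and 5.91%. With LI-Capture-C, fragments with 4 interactions thus outnumbered those with 3 at both merged gene pairs, and with Tag-Capture-C they did not. At Slc25a37 and beta-globin the largest gap between the protocols was at a count of 1, and at alpha-globin at a count of 4. The SDs of these shares come from the spread between libraries. The edgeR standard errors given earlier rest on a count model as well as on that spread.

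**Figure D5:**
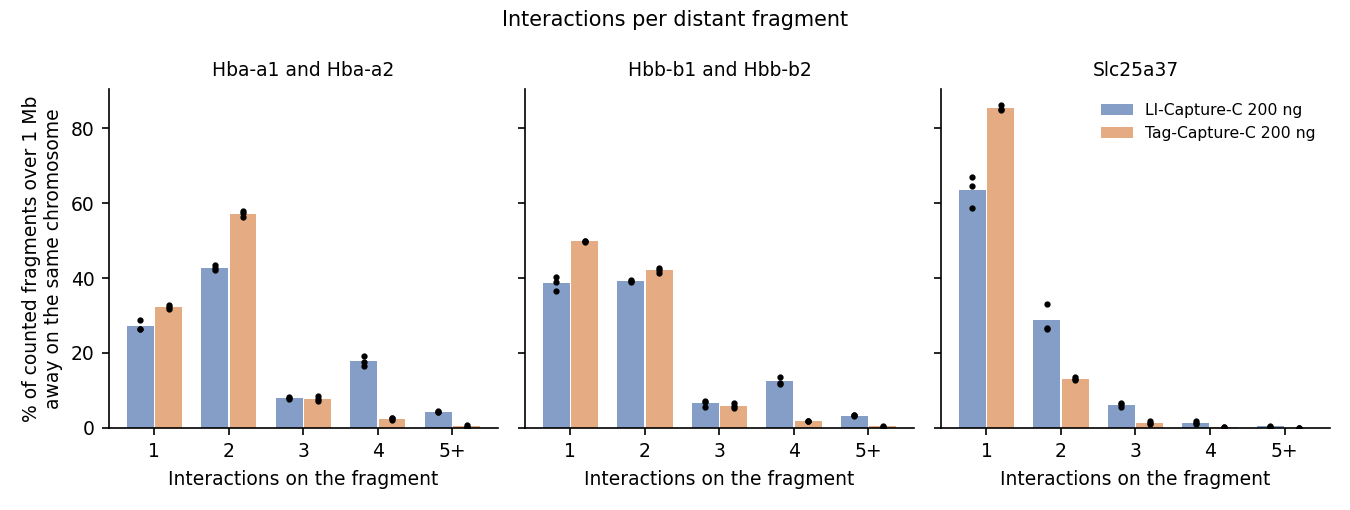
Percent of counted fragments over 1000 kb from the viewpoint on the same chromosome (y axis) by the number of unique interactions they carried (x axis) at 200 ng. Bars are means of 3 libraries, starting at 0, and dots single libraries; at 4 interactions the alpha-globin means are 17.8% with LI-Capture-C and 2.39% with Tag-Capture-C.

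The protocol difference in the computed breadth of the profiles also varied by viewpoint. At an equal depth of 9860 interactions on chromosome 11, the expected number of distinct alpha-globin fragments was 3121, 3125 and 3377 with LI-Capture-C and 3064, 2958 and 2980 with Tag-Capture-C. At 10196 interactions on chromosome 7, beta-globin had 3511, 3404 and 3696 against 3995, 3964 and 3961. At 4654 interactions on chromosome 14, Slc25a37 had 2009, 1965 and 2053 against 2432, 2417 and 2368. Groups did not overlap at any viewpoint (exact permutation p = 0.1 each), with fewer fragments for Tag-Capture-C at alpha-globin and more at the other viewpoints for the same number of interactions. The alpha-globin difference of -207 fragments was -122 without LI-Capture-C replicate 3 (exact permutation p = 0.2). Each count was again treated as independent, so junctions counted under both genes of a pair could be split, which adds fragments. On chromosome 11 the LI-Capture-C libraries were reduced from 16364, 16896 and 21774 interactions, and the Tag-Capture-C libraries from 9888, 9860 and 9882. The effect of such splitting on the globin values was not tested. Without equalising depth, beta-globin had means of 4261 and 4006 distinct fragments and Slc25a37 2373 and 2436, with overlapping groups.

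The spread between replicates was compared with counting noise. The chi-square per degree of freedom between replicates over tested 5 kb windows, which is near 1 for pure counting noise and near 2 if every junction was counted 2 times, was 2.78 with LI-Capture-C and 2.26 with Tag-Capture-C at alpha-globin. It was 2.20 and 1.69 at beta-globin and 1.62 and 1.29 at Slc25a37, where it was 1.04 with Tag-Capture-C without replicate 2. Because the counting at the merged pairs was not settled, the globin values do not separate replicate spread from counting noise. LI-Capture-C libraries are deeper, which raises this measure for a given biological or technical spread. The coefficient of variation that edgeR estimated, taking each count as a junction, was 16.7% and 15.3% at alpha-globin, 10.6% and 7.04% at beta-globin, and 6.70% and 6.45% at Slc25a37, in the order LI-Capture-C and Tag-Capture-C.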

How the data were processed

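Unique interaction counts per DpnII fragment were taken from the tables the authors deposited, 1 table per viewpoint. Per the labels and the methods, reads were trimmed with Trim Galore, aligned to mm9 with Bowtie, and deduplicated by mapped ends with a stringent filter for low input, and counts of each globin gene pair were merged. Aligner versions were not given in the sources used here. No deposited column lacked a sample (0 columns). Of the listed fragments on the viewpoint's own chromosome, 50.3% to 56.3% were at 0 in all 18 low-input libraries. Rows on other chromosomes gave positions that could not be used, so only their chromosome was taken.

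Viewpoint spans were taken as stretches of at least 2500 bp with no count in any low-input library that held a stretch of at least 1500 bp uncounted in the NG Capture-C libraries. Fragments were assigned by midpoint to windows of 5 kb and to bands with edges at 10, 25, 50, 100, 250 and 1000 kb. Windows with a mean count of at least 10 over the 6 libraries were tested with edgeR 4.0.16 (quasi-likelihood, TMM) in R 4.3.3, and bands with edgeR scaled to all interactions of the viewpoint. P-values were adjusted by Benjamini-Hochberg over all windows or bands of a viewpoint. Standard errors were derived from the fold change and its F statistic. Single values were compared by exact two-sided permutation, over 20 assignments at 200 ng. Scripts were tested on simulated data. Members, windows and measures were chosen with earlier results of these data known.

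The windows named were the 3 of smallest p in each direction per viewpoint, the 5 of highest level beyond 10 kb, and the window mirroring the highest. Alternatives covered scaling, DESeq2 1.42.0, count minimum, window size and grid, distance reference, a replicate block, leaving out each library, and, chosen after seeing the data, halved counts at the globin pairs and equal depth for distant counts. Deviations of same-numbered libraries had correlations from -0.03 to 0.479 over viewpoints and numbers, and those of differently numbered ones from -0.369 to 0.219. Whether numbers pair the libraries was not settled, and they were not used as pairs. Total counts ranged from 6778 to 33512 per viewpoint and library. Intervals from counts alone were not given, because a count at the merged pairs may not be an independent junction.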

Additional observations from a re-analysis of the deposited data

How the results depend on the processing

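At beta-globin the fall of the windows chr7:111010000-111014999 and chr7:110955000-110959999 passed under all 15 alternatives, and all 4 called windows kept their direction. The count of 4 became 2 with single restriction fragments and ranged from 2 to 4 when 1 library was left out, with 2 called without LI-Capture-C replicate 2 or Tag-Capture-C replicate 2. At Slc25a37 the count of 2 became 0 with DESeq2, with a mean count of at least 1, with the grid shifted by 2.5 kb and with all 18 low-input libraries in 1 fit, 1 with 10 kb windows, and 0 to 1 when 1 library was left out. At alpha-globin every alternative called 0 windows, with 4 to 104 at an unadjusted p under 0.05. A minimum mean count of 1 moved the median log2 difference of the tested windows by -0.32 at alpha-globin and -0.16 at beta-globin; every other scaling moved it by less than 0.1.

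Whether the numbers that replicates carry pair the libraries was not settled, and not every library correlated best with its own number. With the replicate number as a block, the windows called were 0 at alpha-globin, 2 at beta-globin and 1 at Slc25a37, and the bands 2, 6 and 3.

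For bands, alpha-globin gave 4 with DESeq2, 6 with distance from the midpoint of the span, 1 with counts divided by 2 and rounded up (chosen after seeing the data) and 2 to 4 when 1 library was left out, the 4 without Tag-Capture-C replicate 2. Slc25a37 gave 1 to 3 when 1 library was left out. The exact permutation test called 0 bands at each viewpoint, since its smallest p is 0.1.

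Differences near 0 changed sign. The local share at alpha-globin ranged from -0.20 to 0.28 points with 1 library left out, the side ratio from -0.00051 to 0.18 at beta-globin and -0.030 to 0.14 at Slc25a37, the slope at beta-globin from -0.00026 to 0.028, and the share of fragments under 200 bp at Slc25a37 from -0.11 to 0.92 points. The beta-globin side ratio was -0.026 from the midpoint. The short share was -0.42 points under 100 bp at beta-globin, and over the whole chromosome -0.13 at beta-globin and -0.32 at Slc25a37. Distinct alpha-globin fragments within 250 kb differed by 0.80. Interactions per counted distant fragment, which differed by -0.50 at alpha-globin, differed by 0.15 at equal depth (chosen after seeing the data). That depth was reached by treating each count as independent. Among windows that did not pass, the log2 difference became -0.23 at chr11:32155000-32159999 and -0.063 at chr7:111000000-111004999 with a mean count of at least 1, and 0.0090 with DESeq2 and 0.024 with all 18 libraries at chr14:69930000-69934999. With 1 library left out, it ranged from -0.11 to 0.015 at chr11:32135000-32139999, -0.35 to 0.087 at chr7:110915000-110919999, -0.14 to 0.073 at chr14:69885000-69889999, -0.083 to 0.11 at chr14:69930000-69934999 and -0.21 to 0.074 at chr14:69940000-69944999. The cause was not tested.

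The chi-square per degree of freedom ranged, with 1 library left out, from 2.57 to 3.20 and 2.26 to 2.33 at alpha-globin, 2.04 to 2.51 and 1.29 to 2.01 at beta-globin, and 1.27 to 2.25 and 1.04 to 1.62 at Slc25a37, for LI-Capture-C and Tag-Capture-C. Over single fragments it was 1.91 with Tag-Capture-C at alpha-globin. Depth limits the weak windows most, where standard errors of the log2 difference reached a median of 0.52 beyond 50 kb at alpha-globin.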
